A study of Mus musculus with 36 samples.

Results

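The genes described here encode ephrin receptors, ephrins, semaphorins, plexins and neuropilins. They were chosen by name: every protein-coding gene with an Epha, Ephb, Efna, Efnb, Sema or Plxn symbol followed by its number or letter, together with Nrp1 and Nrp2. The rule found 53 genes among the 37315 in the count table. They comprised 9 EphA receptors, 5 EphB receptors, 5 ephrin-A ligands, 3 ephrin-B ligands, 7 class 3 semaphorins, 13 semaphorins of classes 4 to 7, 9 plexins and 2 neuropilins. The rule uses names and no measured value.

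Eph receptors are receptor tyrosine kinases, and ephrins are the membrane-bound proteins they bind on neighbouring cells, so that signalling passes at cell contacts. Semaphorins are secreted or membrane-bound proteins that are read by plexins. The secreted class 3 semaphorins mostly need a neuropilin as the binding subunit of the receptor. All these families steer axons during development, and in the adult hippocampus and cortex they act at dendritic spines and synapses.

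RNA was sequenced from 4 dissected regions of WT mice of the BL-6 background: the medial and lateral parts of the entorhinal cortex (MEC and LEC) and the hippocampal fields CA3 and CA1. Mice had received a foot shock (fear), had been exposed to the context (context) or had stayed in the home cage, and tissue was taken 90 min after the behaviour. All mice were housed singly and had been handled for 3 min a day over 5 days; age and sex were not given in the labels. Each of the 12 groups of region and condition had 3 libraries, 36 in all. The labels did not say which libraries came from the same mouse, so p-values here measure library-to-library spread, and libraries of different regions may share mice.

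Total counts per library lay between 21871412 and 68974340 with a median of 28098008, and the rarest of the 53 genes still had 340 reads over all libraries. Pyramidal and cortical layer markers were highest in their own regions. The mean log2 level of CA1 pyramidal markers was 7.38 in CA1, 5.41 in CA3, 5.87 in MEC and 5.16 in LEC. That of CA3 pyramidal markers was 6.83 in CA3 and 4.96 in CA1. That of cortical layer markers was 6.16 in MEC, 5.38 in LEC, 3.82 in CA3 and 4.48 in CA1. Dentate granule markers were higher in CA1 (4.72, with libraries between 2.03 and 5.78) than in CA3 (3.29, between 1.85 and 4.54). Some libraries stood apart within their region. On the first principal component of CA3, which held 42.8% of the variance, context replicate 2 was at -69.2 and home cage replicate 2 at 77.0; in CA1 the same replicates were at -61.2 and 55.2, and in LEC home cage replicate 3 was at -56.8. In these tissue samples, fewer cells of a type and less RNA per cell cannot be told apart.

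Levels are given as CPM, counts scaled to library size, and between genes as CPM per kilobase of exon. Averaged over 36 libraries, Epha4 had the highest level per kilobase of the 53 genes, 51.8 CPM per kb. It is a receptor that binds both ephrin-A and ephrin-B ligands. Epha7 followed among EphA receptors with 19.4 CPM per kb, while Epha1 was the lowest gene of all with 0.0976 CPM per kb.

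Among the other families, Efnb3 led the ephrin-B ligands with 34.9 CPM per kb, ahead of Efnb2 with 5.82 and Efnb1 with 2.15 CPM per kb. Sema7a, a membrane-anchored semaphorin, had 25.8 CPM per kb and Sema6b 13.7, while Sema5b had 1.39 CPM per kb. Plxna1 with 18.1 and Plxnc1 with 11.7 CPM per kb led the plexins, and Plxnb3 was lowest with 3.52. The highest level per kilobase in the remaining families lay between 8.27 and 15.0 CPM per kb: Ephb6, a receptor without kinase activity, had 13.7, Efna3 15.0, Sema3e 8.27 and Nrp1 10.7 CPM per kb. The next in these families were Ephb1 with 5.59, Efna1 with 1.49, Sema3c with 4.96 and Nrp2 with 5.42 CPM per kb. Their lowest members were Ephb4 with 0.653, Efna4 with 0.175 and Sema3f with 0.383 CPM per kb.

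The makeup of the set differed between tissues. EphA receptors summed to 71.9 CPM per kb in MEC and 54.1 in LEC, against 154 in CA3 and 152 in CA1. Ephrin-B ligands summed to 35.1 CPM per kb in MEC and 52.2 in LEC, against 38.2 in CA3 and 46.0 in CA1. Neuropilins summed to 10.1 in MEC, 10.7 in LEC, 28.7 in CA3 and 14.7 CPM per kb in CA1. EphB receptors summed to 26.9 in MEC, 14.5 in LEC, 28.7 in CA3 and 26.5 CPM per kb in CA1, so LEC was lowest for both Eph receptor classes.

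**Figure D1:**
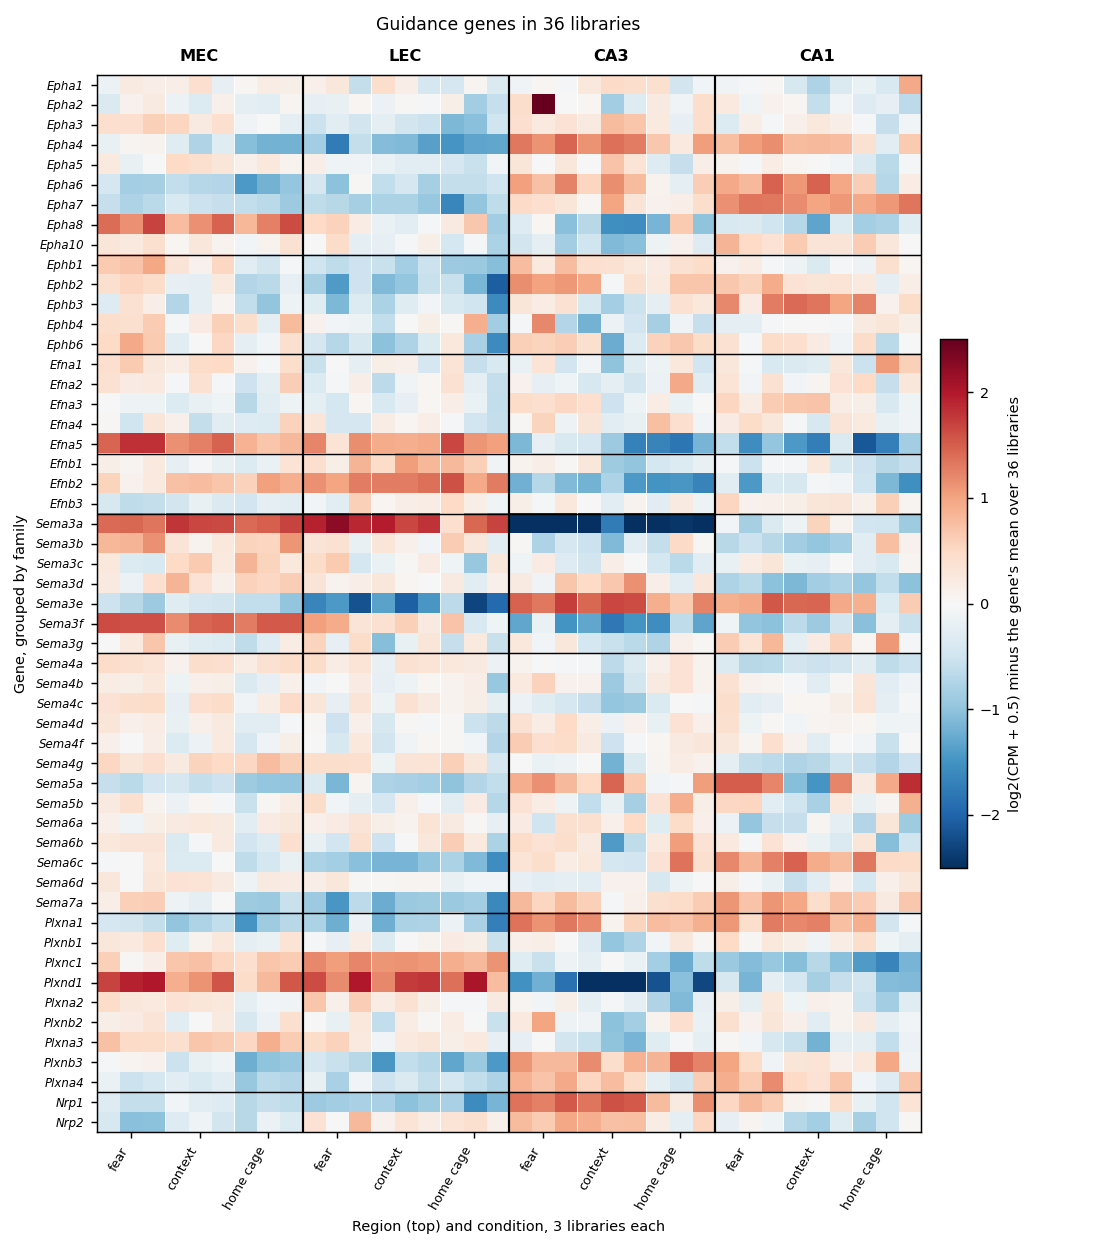
Levels of the 53 genes in 36 libraries, as log2(CPM + 0.5) minus each gene's mean over all libraries; columns are libraries ordered by region and condition, rows are genes grouped by family, and values beyond the ends of the colour bar take the end colour. The blocks of colour follow region: Sema3a, Plxnd1, Efna5 and Efnb2 are mostly red in entorhinal columns, Sema3e, Epha4 and Nrp1 mostly red in hippocampal columns, and the single dark cell in Epha2 is CA3 fear replicate 2 at 19.9 CPM.

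Most of these genes differed between regions. By edgeR's quasi-likelihood test with Benjamini-Hochberg adjustment, 43 of the 53 genes differed among the 4 regions at an adjusted p under 0.05, 81.1% of them beside 61.7% of all 17875 genes tested. The class 3 semaphorins (7 of 7), the ephrin-B ligands (3 of 3) and the neuropilins (2 of 2) were called whole. The remaining families had 8 of 9 EphA receptors, 4 of 5 EphB receptors, 3 of 5 ephrin-A ligands, 9 of 13 semaphorins of classes 4 to 7 and 7 of 9 plexins called.

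Between entorhinal cortex and hippocampus, several ligands and the receptors known to bind them stood on opposite sides. In the contrast of MEC and LEC with CA3 and CA1, 17 of the 53 genes were higher and 21 lower in entorhinal cortex. These 38 are 71.7% of the set beside 50.9% of all genes tested (25.5% higher and 25.4% lower), and the median log2 fold change was -0.06 over the 53 genes and -0.02 over all genes. All EphB receptors that were called (4 of 5) and both neuropilins were lower in entorhinal cortex, and 4 of the 5 called EphA receptors were lower too. Of the 6 called class 3 semaphorins, 5 were higher in entorhinal cortex.

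Sema3a, a secreted ligand that repels axons through Nrp1, had 32.4 to 44.6 CPM in MEC (median 36.2) and 16.9 to 61.0 in LEC (median 44.8). In the hippocampus it had 0.251 to 3.38 CPM in CA3 (median 1.23) and 6.54 to 18.5 in CA1 (median 9.55). LEC home cage replicate 1, at 16.9 CPM, was the only entorhinal library inside the CA1 range, and CA3 lay below every other library. The log2 fold change between entorhinal cortex and hippocampus was 3.39 ± 0.17 (SE; adjusted p = 1.1e-16). Nrp1 showed the reverse order, with 53.0 to 81.8 CPM in MEC and 28.5 to 48.6 in LEC, against 100 to 259 in CA3 and 60.7 to 152 in CA1. Its log2 fold change was -1.48 ± 0.08 (adjusted p = 1e-16), so the region with the least Sema3a, CA3, had the most Nrp1.

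Sema3e and its receptor Plxnd1 stood the other way round. Sema3e had 27.2 to 44.3 CPM in MEC and 10.7 to 34.5 in LEC, against 86.4 to 181 in CA3 and 43.0 to 161 in CA1 (log2 fold change -2.30 ± 0.13, adjusted p = 4e-15). Plxnd1 had 52.5 to 154 CPM in MEC and 65.4 to 157 in LEC, against 2.55 to 18.2 in CA3 and 16.6 to 31.8 in CA1 (2.90 ± 0.15, adjusted p = 8.2e-16). The entorhinal and hippocampal libraries did not overlap for Plxnd1, and for Sema3e only the highest MEC library reached the lowest CA1 library.

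The ligand Sema7a and its receptor Plxnc1 also split. Plxnc1 had 83.3 to 136 CPM in MEC and 145 to 192 in LEC, against 34.3 to 80.7 in CA3 and 25.6 to 50.1 in CA1, with no overlap (1.56 ± 0.06, adjusted p = 9.4e-20). Sema7a had 38.9 to 114 CPM in MEC and 24.0 to 46.9 in LEC, against 71.7 to 131 in CA3 and 87.0 to 161 in CA1 (-1.23 ± 0.08, adjusted p = 4.7e-14). Its MEC libraries reached into the hippocampal range, and those of LEC did not.

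Among Eph receptors, Epha4 had 146 to 354 CPM in MEC and 98.5 to 220 in LEC, against 396 to 923 in CA3 and 274 to 749 in CA1 (-1.77 ± 0.09, adjusted p = 3.6e-17). Epha7 had 86.2 to 124 CPM in MEC and 51.6 to 104 in LEC, against 167 to 319 in CA3 and 313 to 409 in CA1 (-1.54 ± 0.08, adjusted p = 1e-17). Entorhinal and hippocampal libraries did not overlap for Epha7, and for Epha4 only the MEC fear libraries reached the lowest CA1 library. Efna5, an ephrin-A held in the membrane by a lipid anchor, had 3.01 to 7.14 CPM in MEC and 2.24 to 6.40 in LEC, against 0.119 to 1.37 in CA3 and 0 to 1.19 in CA1 (3.15 ± 0.28, adjusted p = 5.7e-11). Efnb2, a transmembrane ligand of EphB receptors and of Epha4, had 33.7 to 64.4 CPM in MEC and 60.8 to 95.4 in LEC, against 9.55 to 18.9 in CA3 and 10.5 to 30.8 in CA1 (1.86 ± 0.10, adjusted p = 2.2e-16).

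Of the genes higher in entorhinal cortex, the other 3 with the smallest p-values were Sema3f (log2 fold change 2.71 ± 0.23), a secreted ligand of Nrp2, Plxna3 (0.80 ± 0.08), a plexin that works with neuropilins, and Sema4g (0.74 ± 0.08). Of those lower in entorhinal cortex, they were Plxnb3 (-1.40 ± 0.10), Epha6 (-1.46 ± 0.11) and Sema6c (-1.34 ± 0.11), a transmembrane semaphorin. Oligodendrocyte markers moved beside Plxnb3: all 9 were lower in entorhinal cortex, with a mean log2 level of 6.72 in MEC and 5.84 in LEC, against 8.40 in CA3 and 7.94 in CA1. Their part in the Plxnb3 difference was not tested. Meningeal and mural markers had a mean log2 level of 4.73 in MEC and 4.35 in LEC, against 2.80 in CA3 and 3.25 in CA1. Whether such tissue had a part in the genes higher in entorhinal cortex, class 3 semaphorins among them, was not tested.

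Other pairs known to bind did not split. Sema5a (-1.53 ± 0.19) and its receptor Plxnb3 were both lower in entorhinal cortex, and so were Efnb3 (-0.28 ± 0.07) and its receptors Epha4 and Ephb2 (-1.09 ± 0.11). Efna3, the ephrin-A ligand with the highest level, was called lower there too, on the side of Epha4 and Epha7. Its log2 fold change was -0.45 ± 0.09 in the fit without CA3 fear replicate 2. Ephrin-A ligands summed to 17.3 CPM per kb in MEC and 16.4 in LEC, against 19.3 in CA3 and 21.8 in CA1. The pairs described were picked after the values had been seen and share genes with each other, so how many split carries no weight. For Sema3f and Nrp2 the receptor's own difference was small, -0.23 ± 0.09 on the log2 scale (adjusted p = 0.033), and it lost its call without any one of several libraries.

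**Figure D2:**
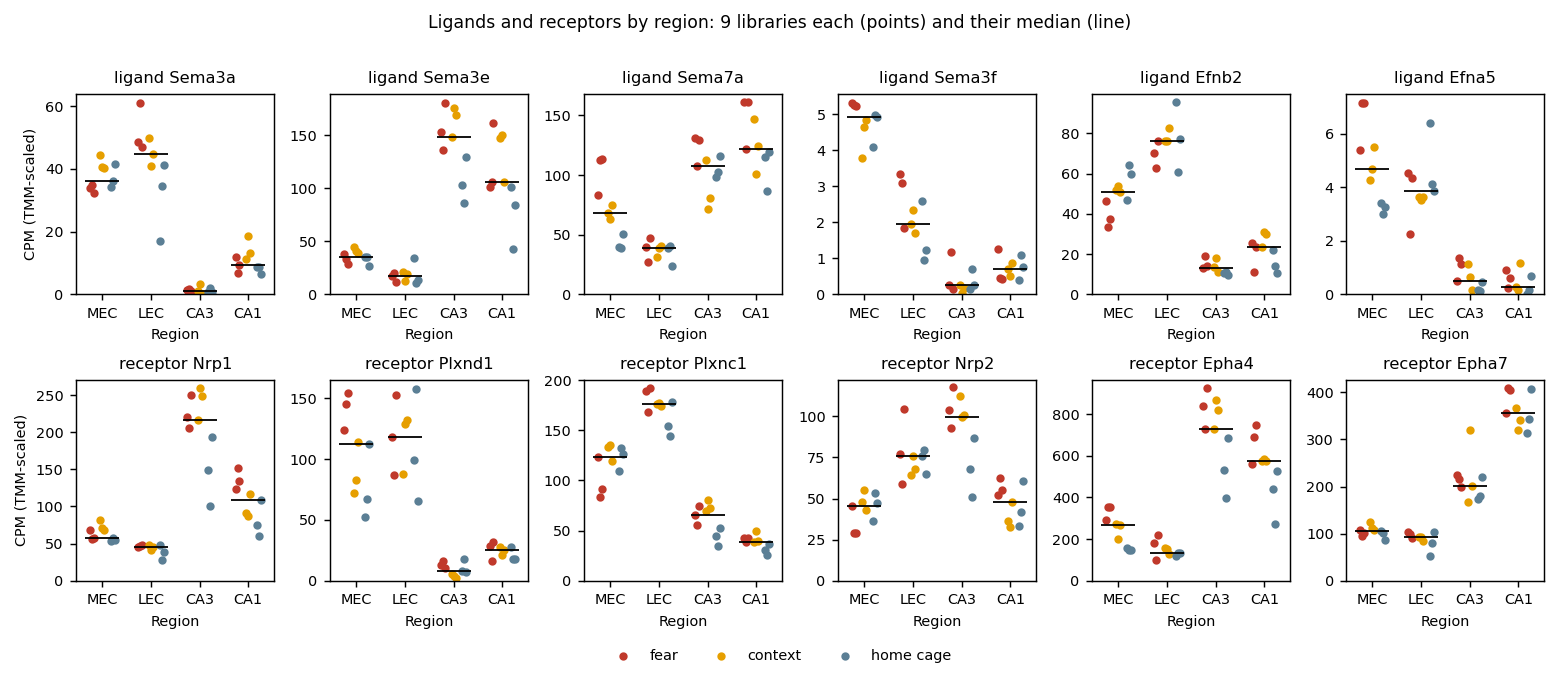
Levels in CPM of 6 ligands (top) and 6 receptors (bottom) by region; points are libraries coloured by condition, 9 for each region, and the line is their median. Sema3a and Nrp1, Sema3e and Plxnd1, and Sema7a and Plxnc1 run in opposite order between entorhinal and hippocampal regions, for example Plxnd1 at a median of 112 CPM in MEC and 8.05 in CA3.

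Within entorhinal cortex, receptors of both Eph classes were higher in MEC and ephrin-B ligands higher in LEC. Between MEC and LEC, 19 of the 53 genes were called, 14 higher and 5 lower in MEC. They are 35.8% of the set beside 17.4% of all genes (8.8% higher and 8.59% lower), and the median log2 fold change was 0.22 over the set and 0.01 over all genes. The 7 Eph receptors called (4 EphA, 3 EphB) were all higher in MEC, and the 3 ephrin-B ligands were all lower in MEC.

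Ephb1, an ephrin-B receptor, had 26.6 to 72.4 CPM in MEC (median 45.8) and 17.2 to 25.8 in LEC (median 23.4). Every MEC library lay above every LEC library, and the log2 fold change was 1.03 ± 0.09 (adjusted p = 6e-10). Epha3 had 19.2 to 34.1 CPM in MEC (median 30.1) and 10.1 to 19.0 in LEC (median 15.9), again without overlap (0.84 ± 0.10, adjusted p = 3.8e-07). Ephb2, which gathers glutamate receptors at synapses, had 11.5 to 28.4 CPM in MEC and 4.29 to 13.4 in LEC (0.95 ± 0.16, adjusted p = 4.9e-05).

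Some of these genes were also apart among home cage libraries alone, and others were not. In home cage libraries Ephb1 had 30.5, 26.6 and 36.1 CPM in MEC, against 19.3, 18.9 and 17.2 in LEC. Epha4 had 159, 146 and 146 CPM in MEC home cage libraries, against 120, 134 and 135 in those of LEC. Neither gene's home cage libraries overlapped between the regions. Sema7a, with 39.9, 38.9 and 50.8 CPM in MEC and 39.1, 40.3 and 24.0 in LEC, and Ephb2, with 11.5, 12 and 16.7 in MEC and 13.1, 8.58 and 4.29 in LEC, did overlap there. Over all conditions Epha4 differed by 0.65 ± 0.12 on the log2 scale (adjusted p = 0.00027).

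On the ligand side, Efnb2 had medians of 51.0 CPM in MEC and 76.2 in LEC (-0.62 ± 0.13), Efnb3 82.6 in MEC and 121 in LEC (-0.56 ± 0.10), and Efnb1 6.71 in MEC and 10.8 in LEC (-0.64 ± 0.16). The receptors Nrp2 (-0.81 ± 0.13) and Plxnc1 (-0.57 ± 0.09) were the other genes lower in MEC. Nrp2 had 28.8 to 55.0 CPM in MEC and 58.8 to 104 in LEC, and Nrp1, its relative, went the other way, with 53.0 to 81.8 in MEC and 28.5 to 48.6 in LEC (0.53 ± 0.11). Sema7a (0.89 ± 0.12), Sema6c (0.90 ± 0.15) and Sema3e (0.99 ± 0.18) were higher in MEC.

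Between the hippocampal fields, CA3 had more of both neuropilins and less Sema3a than CA1. In CA3 against CA1, 22 of the 53 genes were called, 12 higher and 10 lower in CA3. They are 41.5% of the set beside 31% of all genes (16.4% higher and 14.6% lower), and the median log2 fold change was -0.03 over the set and -0.02 over all genes. No ephrin-A ligand was called (0 of 5). Dentate granule markers had a mean log2 level of 3.29 in CA3 and 4.72 in CA1, and their part in these differences was not tested.

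Nrp1 had 100 to 259 CPM in CA3 (median 216) and 60.7 to 152 in CA1 (median 109; 0.97 ± 0.11, adjusted p = 2.9e-08). Nrp2 had 50.7 to 118 CPM in CA3 (median 99.4) and 33.0 to 62.6 in CA1 (median 48.0; 0.98 ± 0.13, adjusted p = 3.6e-07). Sema3d, a secreted semaphorin, had 11.0 to 30.2 CPM in CA3 and 5.91 to 8.58 in CA1, without overlap (1.32 ± 0.12, adjusted p = 8.7e-10). Sema3a was without overlap in the other direction, at -2.91 ± 0.25 (adjusted p = 2.9e-10). The other genes higher in CA3 with the smallest p-values were Plxnc1 (0.67 ± 0.09), Sema4a (0.49 ± 0.09), Ephb1 (0.44 ± 0.09), Plxnb3 (0.61 ± 0.14) and Epha3 (0.41 ± 0.10).

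Lower in CA3 were Epha10 (-0.94 ± 0.12), whose kinase domain is inactive, Epha7 (-0.77 ± 0.10) and Ephb3 (-1.04 ± 0.19). Plxnd1 (-1.48 ± 0.21), Sema6c (-0.70 ± 0.15), Efnb2 (-0.64 ± 0.14) and Sema4c (-0.47 ± 0.12) were lower as well. Epha2, named here for its dependence on 1 library, was called higher in CA3. Its log2 fold change of 1.52 ± 0.51 (adjusted p = 0.023) fell to 0.39 ± 0.39 (adjusted p = 0.49) without CA3 fear replicate 2. Leaving out each library in turn kept 35 of 38 calls between entorhinal cortex and hippocampus, 18 of 19 between MEC and LEC and 19 of 22 between CA3 and CA1 throughout.

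**Figure D3:**
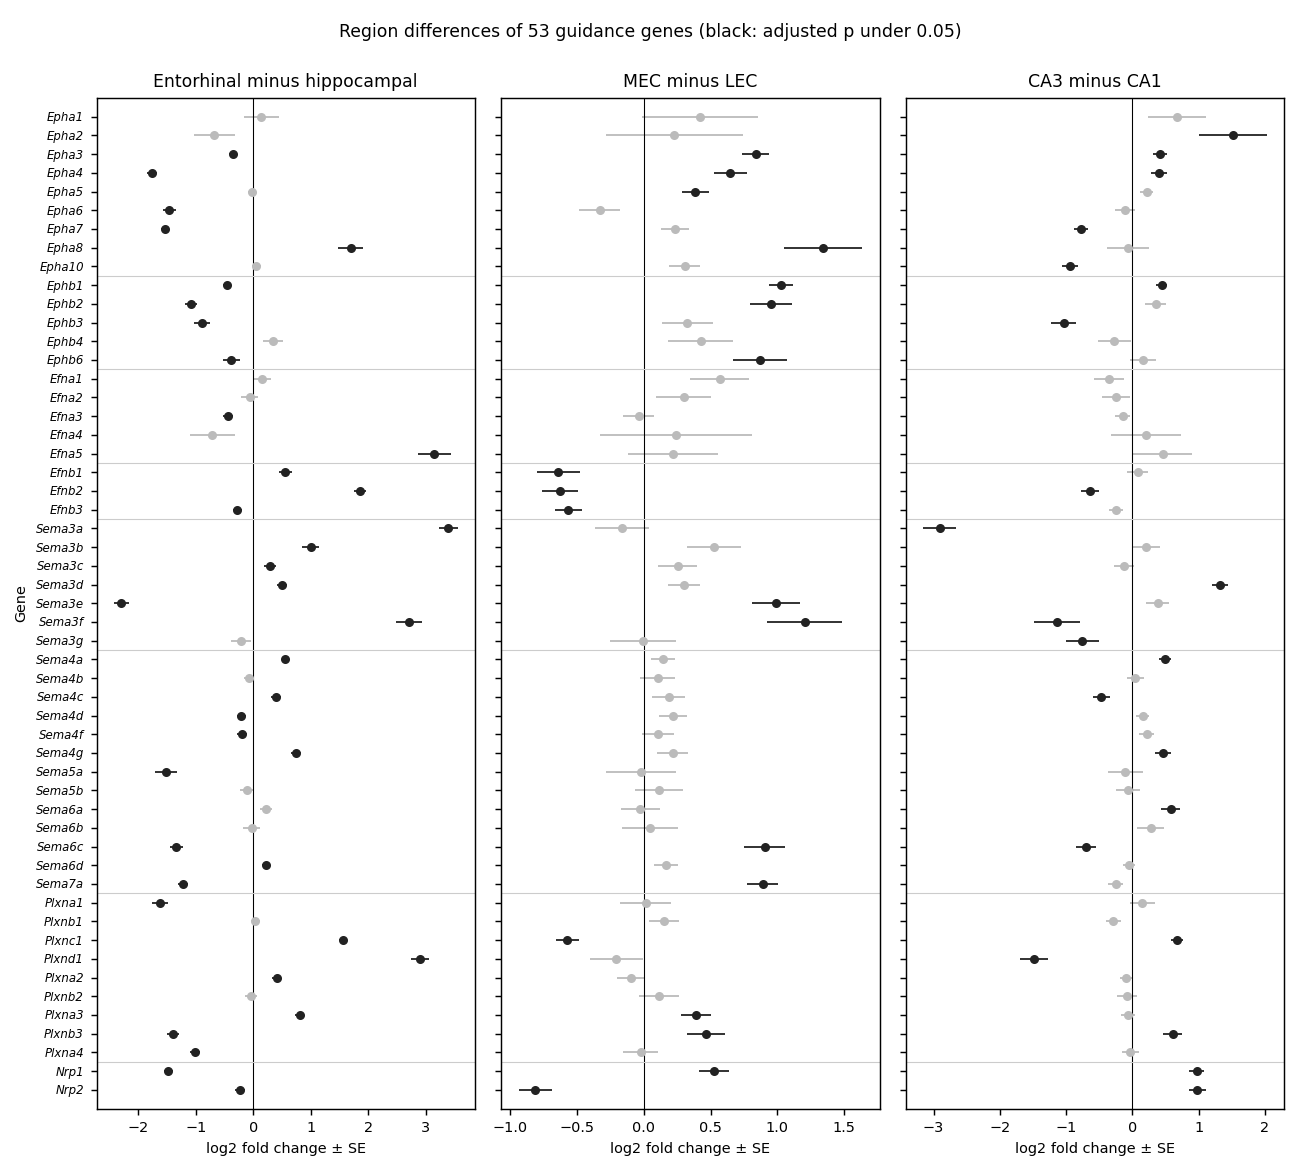
Log2 fold changes with their standard errors for 53 genes in the 3 region contrasts, entorhinal minus hippocampal, MEC minus LEC and CA3 minus CA1; black points have an adjusted p under 0.05 by edgeR's quasi-likelihood test and grey points do not. Positive values mean higher in the region named first, and the entorhinal contrast holds the widest range, between -2.30 for Sema3e and 3.39 for Sema3a.

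In the edgeR fits of single regions, fear against home cage gave calls of the set in MEC and not in LEC, CA3 or CA1, while DESeq2 also gave calls in CA3 and CA1. DESeq2 counts are given here without its share of all genes, so they do not set the family apart. The spread between libraries was also smallest in MEC. As a coefficient of variation over all genes, edgeR put it at 0.14 in MEC, 0.22 in LEC, 0.23 in CA3 and 0.21 in CA1. In MEC, fear against home cage, 12 of the 52 genes tested were higher and 2 lower. These 14 are 26.9% of the genes tested in the set beside 9.56% of all 16314 genes tested (5.68% higher and 3.88% lower), and the median log2 fold change was 0.22 over the set and -0.01 over all genes. The higher genes held 3 EphA receptors, 2 EphB receptors, 1 ephrin-A ligand, 2 semaphorins and 4 plexins, and the lower ones were Efnb2 and Sema3c. Fear and home cage libraries overlapped for none of the 14. These genes were picked by p-values from the same libraries, so that separation carries no further weight.

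The 5 genes with the smallest p-values among the higher ones were Epha4, Sema7a, Plxnb3, Ephb1 and Ephb2, and their promoters are shown because these genes moved together in MEC. The sequences are RefSeq's on GRCm38.p6, 250 bases before to 50 bases after the start, read 5′ to 3′ on the gene's strand, and the capitals mark TGACG on either strand, a core of the cAMP response element. Epha4 lies at chr1:77515039-77515338 on the minus strand, Sema7a at chr9:57939862-57940161 on the plus strand, Plxnb3 at chrX:73756853-73757152 on the plus strand, Ephb1 at chr9:102354644-102354943 on the minus strand, and Ephb2 at chr4:136835963-136836262 on the minus strand.
Epha4: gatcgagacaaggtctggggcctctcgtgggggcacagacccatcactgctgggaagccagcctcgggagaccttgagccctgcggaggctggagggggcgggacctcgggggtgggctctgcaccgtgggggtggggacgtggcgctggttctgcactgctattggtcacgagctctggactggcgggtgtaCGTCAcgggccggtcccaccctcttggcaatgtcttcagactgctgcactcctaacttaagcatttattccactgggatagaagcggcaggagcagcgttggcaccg
Sema7a: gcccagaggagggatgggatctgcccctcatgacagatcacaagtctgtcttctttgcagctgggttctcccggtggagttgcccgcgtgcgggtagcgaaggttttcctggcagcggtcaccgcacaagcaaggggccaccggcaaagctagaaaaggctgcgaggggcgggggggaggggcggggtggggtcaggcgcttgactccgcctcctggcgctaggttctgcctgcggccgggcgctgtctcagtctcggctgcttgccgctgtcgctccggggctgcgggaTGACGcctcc
Plxnb3: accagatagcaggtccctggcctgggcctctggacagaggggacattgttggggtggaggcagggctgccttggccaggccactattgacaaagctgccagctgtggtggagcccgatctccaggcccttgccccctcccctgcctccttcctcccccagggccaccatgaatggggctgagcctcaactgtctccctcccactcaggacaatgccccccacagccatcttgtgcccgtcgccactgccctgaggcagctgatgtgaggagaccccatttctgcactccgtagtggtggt
Ephb1: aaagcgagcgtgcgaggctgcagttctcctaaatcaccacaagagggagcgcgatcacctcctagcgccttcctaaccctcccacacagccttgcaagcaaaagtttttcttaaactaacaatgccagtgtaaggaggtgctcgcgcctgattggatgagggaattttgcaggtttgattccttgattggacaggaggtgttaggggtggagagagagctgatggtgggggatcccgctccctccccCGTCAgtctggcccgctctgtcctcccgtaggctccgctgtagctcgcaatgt
Ephb2: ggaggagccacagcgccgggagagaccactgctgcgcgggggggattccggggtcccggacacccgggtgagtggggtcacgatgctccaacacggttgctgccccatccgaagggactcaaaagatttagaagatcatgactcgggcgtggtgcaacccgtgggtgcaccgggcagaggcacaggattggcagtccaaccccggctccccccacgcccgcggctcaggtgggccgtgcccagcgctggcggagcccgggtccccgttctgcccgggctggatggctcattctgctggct
The match began at position -57 from the start in Epha4, -3 in Ephb1 and 41 in Sema7a, where 1 is the first base of the transcript, and these letters were not in the windows of Plxnb3 and Ephb2. TGACG was in 20.8% of all 32851 promoters of this length, and in 9 of the 61 promoters listed for 47 of the 53 genes. Both strands were searched for 4 further motifs: the full element TGACGTCA, which contains TGACG (1.79% of all promoters and 1 of 61), the AP-1 site TGANTCA (7.81% and 3), the Egr site GCGNGGGCG (5.55% and 11) and the MEF2 site (3.69% and 1). None of these 4 was in the promoters shown. Of the other genes called here, Efna5, Plxna2 and Sema5a had the Egr site in a listed promoter, and Efnb2 and Sema5a had TGACG. Such matches describe letters and not binding.

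Epha4 had 293, 352 and 354 CPM in MEC fear libraries, against 159, 146 and 146 in home cage libraries. All 3 fear libraries lay far above the home cage libraries, and the log2 fold change was 1.12 ± 0.12 (adjusted p = 0.00027). Sema7a had 83.2, 112 and 114 CPM in fear libraries, against 39.9, 38.9 and 50.8 in home cage libraries (1.23 ± 0.13, adjusted p = 0.00029). Plxnb3, a receptor for Sema5a, had 18.8, 20.4 and 21.1 CPM after fear, against 8.08, 9.42 and 9.85 in the home cage (1.11 ± 0.14, adjusted p = 0.00086).

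Of the 5 EphB receptors, 2 were called. Ephb1 had 58.0, 60.7 and 72.4 CPM in fear libraries, against 30.5, 26.6 and 36.1 in home cage libraries (1.01 ± 0.13, adjusted p = 0.00095). Ephb2 had 26.0, 28.4 and 26.8 CPM in fear libraries, against 11.5, 12 and 16.7 in home cage libraries (0.98 ± 0.16, adjusted p = 0.0037). Both genes were about 2-fold higher after fear with no overlap between the groups. The 3 EphB receptors not called had values of 0.64 ± 0.25 for Ephb3, 0.63 ± 0.20 for Ephb6 and 0.08 ± 0.27 for Ephb4. The other genes called higher after fear had log2 fold changes between 0.35 for Sema5a and 0.99 for Efna5.

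The 2 genes that fell after fear in MEC were less steady. Efnb2 had 46.2, 33.7 and 37.3 CPM in fear libraries, against 46.9, 64.4 and 59.6 in home cage libraries (-0.57 ± 0.13, adjusted p = 0.019). Sema3c, a secreted semaphorin, had 40.8, 26.6 and 26.0 CPM in fear libraries, against 62.1, 50.5 and 40.9 in home cage libraries (-0.74 ± 0.19, adjusted p = 0.032). For both, the highest fear library came within 1 CPM of the lowest home cage library. Leaving out each library in turn kept 7 of the 14 calls in every fit, namely the 5 genes shown with promoters, Efna5 and Plxna2. The count fell to 8 without fear replicate 2 (2.49% of all genes) and 7 without fear replicate 3 (1.84%). It was 9 without home cage replicate 1 (4.11%) and 8 without home cage replicate 2 (3.04%). Without home cage replicate 3 it was 26, beside 27% of all genes. In a fit of all 36 libraries 4 were called: Ephb1, Sema7a, Epha4 and Plxnb3.

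Markers of other cells also differed between these MEC groups. Oligodendrocyte markers, all 9 of them above the filter, were called higher after fear for 5, with summed levels of 2410 to 3355 CPM in fear libraries and 1564 to 2287 in home cage libraries. With their mean level as a covariate, the log2 fold change was 0.76 ± 0.19 for Epha4 (adjusted p = 0.090), 1.01 ± 0.26 for Sema7a (adjusted p = 0.094), 1.17 ± 0.28 for Plxnb3 (adjusted p = 0.086), 0.81 ± 0.25 for Ephb1 (adjusted p = 0.14) and -0.03 ± 0.16 for Efnb2 (adjusted p = 0.95). In that fit 1 gene, Epha6, was called (1.00 ± 0.18, adjusted p = 0.042), and the median standard error over the 14 genes was 0.23, against 0.13 without the covariate. Endothelial markers were called higher after fear for 3 of 6 (summed 77.9 to 109 CPM after fear, 55.8 to 62.6 in the home cage), and activity-regulated genes for 8 of 8 (summed 637 to 916 CPM after fear, 305 to 336 in the home cage). Interneuron markers summed to 784 to 841 CPM after fear and 605 to 643 in the home cage. CA3 pyramidal markers summed to 431 to 495 CPM after fear and 294 to 328 in the home cage. Oligodendrocyte precursor markers summed to 168 to 182 CPM after fear and 141 to 163 in the home cage. Summed cortical layer, astrocyte and microglia markers overlapped between the groups. The mean log2 level of cortical layer markers did not overlap, at 6.24 to 6.27 after fear and 5.87 to 6.10 in the home cage. All fear libraries lay above all home cage libraries in oligodendrocyte markers, so the covariate fit cannot tell such cells from condition. The part of the other markers, and of endothelial and activity-regulated genes, in the guidance genes was not tested.

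**Figure D4:**
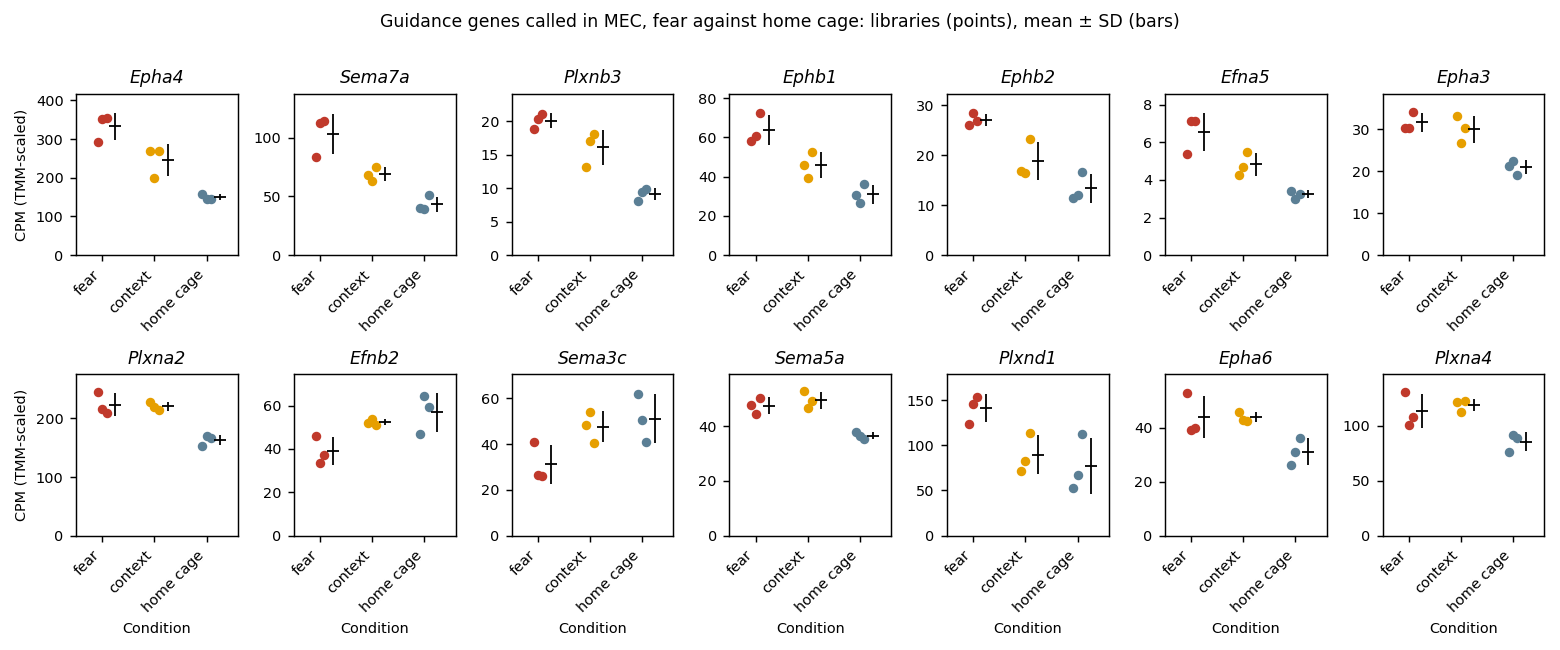
Levels in CPM in MEC of the 14 genes called between fear and home cage; points are the 3 libraries of each condition and bars their mean with SD. Context libraries lie between the fear and home cage means for Epha4, Sema7a, Plxnb3, Ephb1 and Ephb2, for example Epha4 with means of 333 CPM after fear, 246 after context and 150 in the home cage.

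After context exposure in MEC, 3 genes were higher. In context against home cage they were the genes called of 52 tested, 5.77% of the set beside 0.57% of all genes (0.497% higher and 0.0736% lower), with a median log2 fold change of 0.09 over the set and -0.02 over all genes. The home cage libraries are those of the fear comparison. Epha4 had 270, 199 and 269 CPM after context, against 159, 146 and 146 in the home cage (0.68 ± 0.12, adjusted p = 0.027). Plxnb3 had 13.2, 17.1 and 18.1 CPM after context, against 8.08, 9.42 and 9.85 in the home cage (0.80 ± 0.14, adjusted p = 0.031). Sema7a had 68.3, 63.1 and 74.9 CPM after context, against 39.9, 38.9 and 50.8 in the home cage (0.64 ± 0.13, adjusted p = 0.048).

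None of these groups overlapped, but none of the 3 calls held in every fit with 1 library left out, whose counts ran between 0 and 8. The count was 1 without context replicate 1 or 2, fear replicate 2 or home cage replicate 1 (0.072 to 0.282% of all genes). It was 0 without context replicate 3, fear replicate 3 or home cage replicate 2. Without home cage replicate 3 it was 8, beside 2.14% of all genes. Same-numbered libraries deviated together, with every correlation over 0.1, in this comparison alone (correlations between 0.15 and 0.35). Blocking on the replicate number gave 10 calls. In that blocked fit Epha4 had an adjusted p of 0.0073, Plxnb3 of 0.0029 and Sema7a of 0.0032. The covariate of oligodendrocyte markers left 3 calls here, none of which was Epha4 (0.44 ± 0.15), Plxnb3 (0.83 ± 0.22) or Sema7a (0.49 ± 0.20). The median standard error of these 3 was 0.20 with the covariate, against 0.13 without it. Oligodendrocyte markers summed to 2321 to 2731 CPM after context and 1564 to 2287 in the home cage, so this fit cannot tell such cells from condition. Cortical layer markers had mean log2 levels of 6.16 to 6.31 after context and 5.87 to 6.10 in the home cage. Their part was not tested.

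Between fear and context in MEC, edgeR called 0 genes of the set and 0 of all genes. At an unadjusted p under 0.05 there were 18 of 52, beside 14.7% of all genes, and DESeq2 called 1. The smallest p-values were those of Sema7a (0.59 ± 0.13), Epha4 (0.44 ± 0.12) and Sema3b (0.85 ± 0.23), all with an adjusted p of 0.31. For these 3, picked for their small p-values, the fear libraries lay above all context libraries.

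Averaged over the 4 regions, most genes called after foot shock encoded receptors, and all were higher. In fear against home cage, 18 of the 53 genes were called, 34.0% of the set beside 24.1% of all genes (14.2% higher and 9.94% lower). The median log2 fold change was 0.24 over the set and -0.00 over all genes. The 18 held 5 of 9 EphA receptors, 5 of 9 plexins, 2 of 5 EphB receptors, Nrp1, 2 ephrin-A ligands and 3 semaphorins of classes 4 to 7, and no ephrin-B ligand or class 3 semaphorin was called.

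Epha4 was higher in all 4 regions, by 1.12 ± 0.12 in MEC, 0.32 ± 0.23 in LEC, 0.61 ± 0.19 in CA3 and 0.67 ± 0.20 in CA1 on the log2 scale, and by 0.71 ± 0.11 on average (adjusted p = 2.7e-05). In CA3 it had 838, 729 and 923 CPM after fear, against 530, 396 and 687 in the home cage. In LEC it had 183, 98.5 and 220 CPM after fear, against 120, 134 and 135 in the home cage. The groups did not overlap in MEC, CA3 and CA1, and overlapped in LEC.

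Plxna2, a receptor for class 6 semaphorins and for Sema5a, was called on average and, among single regions, in MEC. Its log2 fold change was 0.43 ± 0.09 in MEC, 0.39 ± 0.16 in LEC, 0.67 ± 0.20 in CA3 and 0.61 ± 0.16 in CA1, and 0.55 ± 0.09 on average (adjusted p = 3.3e-05). In CA1 it had 197, 151 and 214 CPM after fear, against 123, 97.5 and 144 in the home cage. Plxna4, which relays Sema3a and Sema6a signals, differed by 0.56 ± 0.11 on average (adjusted p = 0.00061), with regional values between 0.24 ± 0.18 in LEC and 0.78 ± 0.24 in CA3.

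Regional values are given for 3 further genes. Ephb1 (0.42 ± 0.07 on average) had 1.01 ± 0.13 in MEC, 0.39 ± 0.14 in LEC, 0.25 ± 0.16 in CA3 and -0.06 ± 0.15 in CA1. Sema7a (0.52 ± 0.10) had 1.23 ± 0.13 in MEC, 0.09 ± 0.22 in LEC, 0.20 ± 0.17 in CA3 and 0.45 ± 0.17 in CA1. Nrp1 (0.44 ± 0.10) had 0.10 ± 0.11 in MEC, 0.24 ± 0.17 in LEC, 0.59 ± 0.20 in CA3 and 0.72 ± 0.19 in CA1. Whether such values differ between regions was tested separately, by the interaction of region and condition. Since regions may share mice, p-values of these averages may be too small.

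Epha6 (0.61 ± 0.13), Ephb2 (0.62 ± 0.14) and Epha3 (0.34 ± 0.09) completed the 9 genes whose call held through all 36 fits with 1 library left out. The other 9 lost theirs in at least 1 such fit: Plxnb3 (0.41 ± 0.12), Efna3 (0.31 ± 0.10), Sema4d (0.27 ± 0.09), Epha5 (0.26 ± 0.09), Plxnc1 (0.22 ± 0.08), Sema4f (0.30 ± 0.10), Efna5 (0.97 ± 0.34), Plxna1 (0.45 ± 0.17) and Epha2. An offset for GC content and length ended the calls of Plxnc1 (0.09 ± 0.06), Sema4d (0.11 ± 0.07), Plxnb3 (0.26 ± 0.11) and Plxna1 (0.28 ± 0.11), and gave 0.39 ± 0.09 for Ephb2, 0.34 ± 0.09 for Plxna4 and 0.32 ± 0.05 for Plxna2, which kept theirs. Plxna1 shares 970 bases of exon with a gene on the opposite strand, Gm26811, and the strand setting of the counting is not given in the sources used here. Epha2 (1.33 ± 0.44, adjusted p = 0.026) rested on CA3 fear replicate 2, with 624 reads and 19.9 CPM, against 0.0434 to 0.846 CPM in the other CA3 libraries. Without that library it was 0.49 ± 0.33 (adjusted p = 0.31).

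Context exposure, averaged likewise, gave 9 calls, 8 higher and 1 lower, 17% of the set beside 22.1% of all genes (13.5% higher and 8.58% lower). That share lies below the background. The home cage libraries are those of the fear average, and the median log2 fold change was 0.07 over the set and -0.03 over all genes. The 9 were Epha3 (0.46 ± 0.09), Plxna2 (0.43 ± 0.09), Plxnc1 (0.37 ± 0.08), Epha4 (0.50 ± 0.11), Nrp1 (0.41 ± 0.10), Epha6 (0.55 ± 0.13), Epha5 (0.32 ± 0.09), Plxna4 (0.38 ± 0.11) and, lower, Sema3b (-0.80 ± 0.18), a secreted semaphorin.

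Epha3 after context was called on average but in no single region, with values of 0.49 ± 0.12 in MEC, 0.42 ± 0.21 in LEC, 0.43 ± 0.19 in CA3 and 0.40 ± 0.17 in CA1. Sema3b was low throughout, with log2 fold changes of -0.66 ± 0.23 in MEC, -0.21 ± 0.34 in LEC, -0.84 ± 0.48 in CA3 and -1.57 ± 0.41 in CA1. It had 0.820, 0.731 and 0.821 CPM in CA1 context libraries, against 1.49, 3.54 and 2.06 in CA1 home cage libraries. All 9 calls held in the 36 fits with 1 library left out. Correction for GC content and gene length ended those of Epha5 and Nrp1. Ribosomal protein genes were called lower for 6 of 6 in both averages (median log2 fold change -0.84 for fear and -0.91 for context).

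**Figure D5:**
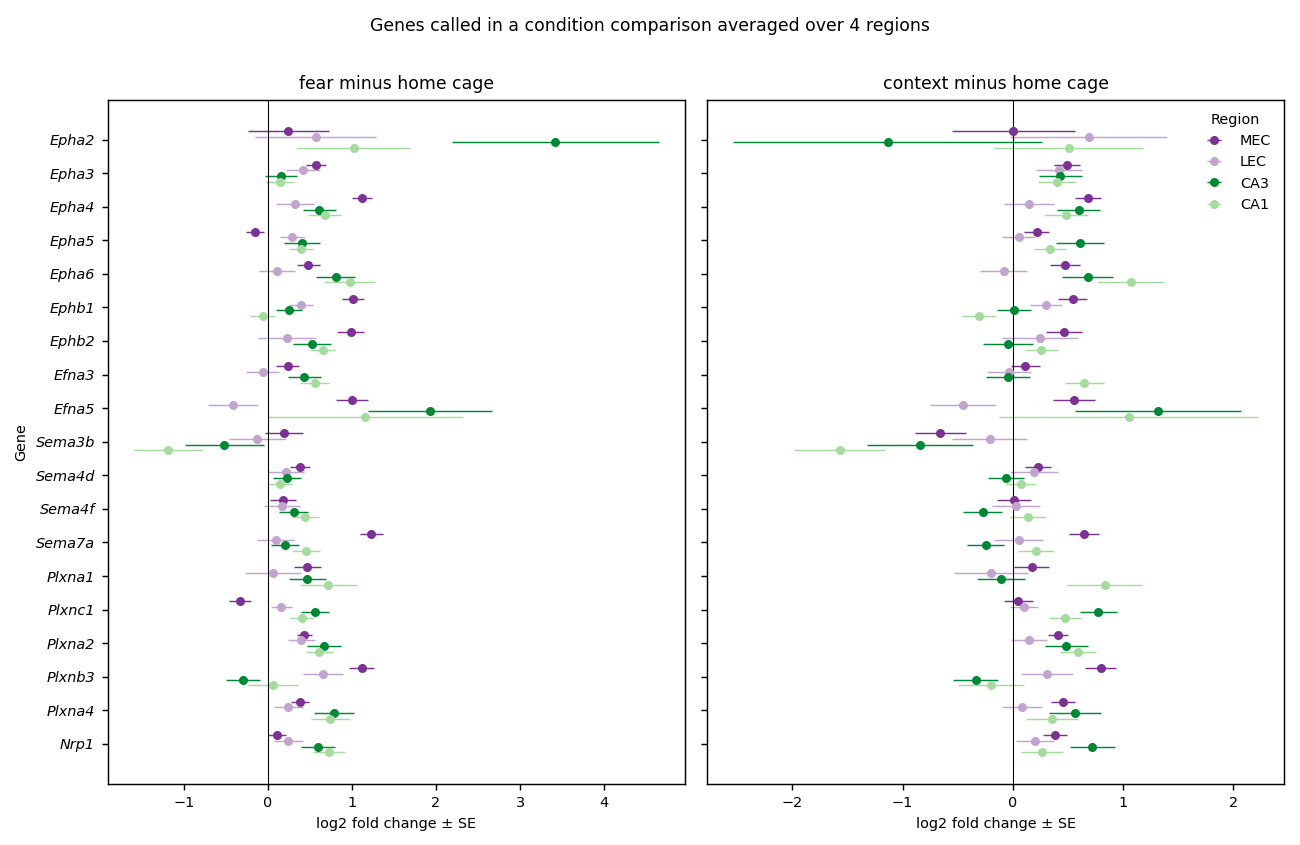
Log2 fold changes with their standard errors by region for the 19 genes called in a condition comparison averaged over 4 regions, fear minus home cage on the left and context minus home cage on the right; both panels share the home cage libraries. Epha4 and Plxna2 lie right of 0 in all regions in both panels, Ephb1 and Sema7a are farthest right in MEC (1.01 and 1.23 for fear), and the CA3 value of Epha2 rests on 1 library.

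In CA3, context exposure gave calls in both directions, and the genes called higher and lower differed in base composition. In context against home cage, 4 of the 52 genes tested were higher and 8 lower, 23.1% of the set beside 13.9% of all genes (5.77% higher and 8.13% lower; median log2 fold change -0.09 over the set and -0.01 over all genes). The 4 higher genes had transcripts of 41.9 to 51.1% GC, and the 8 lower ones of 55.0 to 61.5%. All adjusted p-values lay close to the threshold. No context library overlapped a home cage library for any of the 12, but they were picked by p-values from the same libraries, so that carries no further weight.

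The higher genes were receptors and 1 ligand. Plxnc1 had 69.3, 80.7 and 72.8 CPM after context, against 44.9, 34.3 and 52.2 in the home cage (0.77 ± 0.17, adjusted p = 0.045). Nrp1 had 216, 259 and 248 CPM after context, against 149, 100 and 193 in the home cage (0.72 ± 0.20, adjusted p = 0.046). Nrp2 (0.61 ± 0.18) and Sema3e (0.64 ± 0.17) were the other genes. Home cage replicate 2 was the lowest library for each of these 4.

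The lower genes were led by Plxnb1, the receptor for Sema4d, with 79.0, 50.1 and 58.2 CPM after context, against 94.6, 120 and 101 in the home cage (-0.74 ± 0.17, adjusted p = 0.045). Sema5b (-1.08 ± 0.26), Ephb3 (-0.77 ± 0.20), Plxna3 (-0.70 ± 0.19) and Epha10 (-0.76 ± 0.21) followed. With an offset for GC content and length, Plxnc1 was the only gene of the set called (0.54 ± 0.11, adjusted p = 0.048), and Nrp1 fell to 0.25 ± 0.13 and Epha10 to -0.11 ± 0.14.

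The adjusted p-values crossed the threshold easily. No gene of the set was called without context replicate 2 or 3, any 1 of the 3 fear libraries, or home cage replicate 1 or 2, and none without context replicate 2 and home cage replicate 2 together, while 26 were called without context replicate 1, beside 32.7% of all genes. Without fear replicate 2 the values hardly moved, for example Plxnc1 at 0.78 ± 0.17 and Plxnb1 at -0.74 ± 0.18, each with an adjusted p of 0.057. Over all fits with 1 library left out, Plxnc1 ranged between 0.63 and 0.92, Nrp1 between 0.51 and 0.97 and Plxnd1 between -1.82 and -0.91. Ribosomal protein genes moved along, with summed levels of 113 to 249 CPM after context and 322 to 1043 in the home cage and 6 of 6 called lower.

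For fear against home cage in CA3, edgeR called 0 of the 52 genes, beside 0.00619% of all genes (1 gene). At an unadjusted p under 0.05 there were 12, beside 18.9% of all genes, and DESeq2 called 5. The smallest p-values were those of Epha6 (0.80 ± 0.23), Plxna2 (0.67 ± 0.20) and Plxnc1 (0.56 ± 0.17), each with an adjusted p of 0.16. Epha6 had 145, 118 and 168 CPM after fear, against 76.1, 59.6 and 109 in the home cage, without overlap.

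Between fear and context in CA3, edgeR called 0 genes of the set and 0 of all genes, with 18 of 52 at an unadjusted p under 0.05 beside 23.4% of all genes, and DESeq2 called 6. Ephb3 (0.89 ± 0.20), Plxnb1 (0.74 ± 0.17) and Plxnd1 (1.67 ± 0.39) had the smallest p-values, each with an adjusted p of 0.15. Plxnd1 had 13.1, 16.3 and 10.1 CPM after fear and 5.93, 3.69 and 2.55 after context. CA1 pyramidal markers, none of the 5 called, summed to 383 to 404 CPM in these CA3 fear libraries and 138 to 231 in the context libraries; Plxnd1 and Ephb3 were lower in CA3 than in CA1. The part of CA1 tissue was not tested. Without context replicate 1, 16 genes of the set were called, beside 20.4% of all genes.

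In CA1, edgeR called 0 of 52 genes in each comparison, and 0 of all genes. For fear against home cage, 13 genes had an unadjusted p under 0.05, beside 22% of all genes, and DESeq2 called 7. Ephb2 had 31.4, 29.3 and 37.4 CPM after fear, against 23.3, 16.3 and 22.1 in the home cage (0.65 ± 0.15, adjusted p = 0.067). Nrp1 had 123, 152 and 134 CPM after fear, against 75.5, 60.7 and 109 in the home cage (0.72 ± 0.19, adjusted p = 0.073), and Plxna2 differed by 0.61 ± 0.16 (adjusted p = 0.075). All 3 genes, picked for their small p-values, were without overlap between the groups.

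For context against home cage in CA1, 13 genes had an unadjusted p under 0.05, beside 21.3% of all genes, and DESeq2 called 5. Sema3b (-1.57 ± 0.41), Plxna2 (0.59 ± 0.16) and Efna3 (0.65 ± 0.18), an ephrin-A ligand, had the smallest p-values, with adjusted p-values of 0.105, 0.106 and 0.107. For fear against context there were 4 at an unadjusted p under 0.05, beside 5.68% of all genes, and DESeq2 called 0. Sema3a (-0.63 ± 0.24), Ephb2 (0.39 ± 0.15) and Nrp2 (0.52 ± 0.20) led that comparison, each with an adjusted p of 0.85. CA3 pyramidal markers, none of the 5 called, had mean log2 levels of 4.75 to 6.08 in these CA1 fear libraries and 4.35 to 4.47 in the context libraries, and summed to 539 to 749 CPM in fear and 578 to 689 CPM in context libraries. The part of CA3 tissue was not tested.

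Sema5a, which limits synapse number on dentate granule cells in mice, was uneven in CA1; it is named here because of its values. It had 203, 204 and 167 CPM in fear libraries, 33.7, 25.1 and 166 in context libraries and 82.5, 136 and 255 in home cage libraries. The low context libraries, replicates 1 and 2, also had the lowest summed dentate granule markers in CA1, 159 and 120 CPM, beside 378 in context replicate 3, 372 to 471 in fear libraries and 243 to 474 in home cage libraries. The part of such cells in the Sema5a values was not tested.

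In LEC, edgeR called 0 of 52 genes in each comparison and 0 of all genes, and DESeq2 also called 0. At an unadjusted p under 0.05 there were 4 for fear against home cage (7.57% of all genes), 0 for context against home cage (2.46%) and 0 for fear against context (1.26%). For fear against home cage the smallest p-values belonged to Plxnb3 (0.65 ± 0.24), Ephb1 (0.39 ± 0.14) and Sema3a (0.71 ± 0.27), each with an adjusted p of 0.59. Ephb1 had 25.8, 23.4 and 25.4 CPM after fear, against 19.3, 18.9 and 17.2 in the home cage, without overlap.

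For context against home cage in LEC, Ephb1 (0.30 ± 0.14), Epha3 (0.42 ± 0.21) and Sema3a (0.50 ± 0.27) led, each with an adjusted p of 1. For fear against context, Sema5a (0.42 ± 0.24), Epha8 (0.74 ± 0.42) and Plxna3 (0.27 ± 0.16) led, each with an adjusted p of 1.

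Whether the condition differences themselves differed between regions was tested by the 6 interaction terms of region and condition over all 36 libraries. edgeR called 0 of 53 genes and 0 of all genes, with 12 of 53 at an unadjusted p under 0.05 beside 10.2% of all genes. The smallest adjusted p of the set was 0.48, for Ephb1. A difference between regions in the response of Ephb1 or Sema7a was thus not shown.

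Partners of these receptors inside and around the cell, a list of 46 genes, were followed in the same fits. In MEC, fear against home cage, 5 of 46 were higher and 1 lower, 9.56% of all genes being called. Higher were Cntn2, an axonal adhesion protein (1.01 ± 0.10), Mical2 (0.75 ± 0.09) of the MICAL family that oxidises actin downstream of plexins, Kalrn (0.43 ± 0.09), Arhgef11 (0.48 ± 0.11) and Sh3bp1 (0.91 ± 0.22). Rasa1, a GTPase-activating protein for Ras, was lower (-0.45 ± 0.13). Cntn2 was also the only partner called in MEC for context against home cage (0.70 ± 0.10).

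Averaged over regions, 17 partners were higher and 4 lower after fear, and 11 higher and 3 lower after context, beside 24.1% and 22.1% of all genes called. Between entorhinal cortex and hippocampus 17 were higher and 14 lower (50.9% of all genes called), led by Rnd1, which binds plexins (1.89 ± 0.09), and Arhgef15, of the ephexin family (1.59 ± 0.09). Between MEC and LEC 8 were higher and 6 lower in MEC (17.4% of all genes), and between CA3 and CA1 6 were higher and 14 lower in CA3 (31%). In CA3, context against home cage, 3 were higher and 7 lower (13.9%).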

How the data were processed

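Poly(A)-selected RNA of 36 libraries was prepared with a stranded kit, per the labels' protocols. The submitters' processing notes name Trimmomatic 0.33, STAR 2.7.10b, HTSeq 2.0.1 and mm10; the strand setting of counting is not given in the sources used here. The deposited values are raw counts per gene, and the 36 single-library files held the same values as the table. The 53 genes and the marker, partner and pair lists were chosen with earlier results of these data known. Tests used edgeR 4.0.16 (R 4.3.3), fitted on all genes kept by its filter on low counts with TMM scaling, within a region for its condition comparisons and over all 36 libraries for region contrasts, averages and the interaction, with Benjamini-Hochberg adjustment over all genes tested and a threshold of 0.05. CPM uses TMM-scaled library sizes; marker levels are means of log2(CPM + 0.5). Promoters are RefSeq's on GRCm38.p6, listed for 47 of the 53 genes. The fits were tested on simulated data.

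Genes named were the 8 called with the smallest p in each direction of a region contrast; every gene called in a condition comparison, or beyond 10 calls the 5 with the smallest p in each direction; with no call, the 3 with the smallest p; every gene called in an average; and the 2 highest and the lowest of each family per kilobase. Alternatives were DESeq2 1.42.0, limma 3.58.1 voom, no filter, one fit of all libraries, a replicate block, an offset for GC content and length, an oligodendrocyte covariate and leaving out each library. Same-numbered libraries deviated together, with every correlation over 0.1, in 1 of 12 condition comparisons, MEC context against home cage (0.15 to 0.35), and in 0 of 18 pairs of regions.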

Additional observations from a re-analysis of the deposited data

Results flagged for a closer look

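In 15 of 212 checks of a gene within a region, 1 library lay far from the other 8, measured by its gap relative to the region's whole range. Chance alone would flag about 1 in 20 checks, so many of the 15 flags may be due to it.

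CA3 fear replicate 2 held 2 of them, both Eph receptors. Epha2 was at 19.9 CPM there (624 reads), against 0.0434 to 0.846 CPM in the other CA3 libraries, and Ephb4 at 7.19 CPM (225 reads), against 0.970 to 2.75 CPM. CA3 home cage replicate 2 was high for Efna2 with 6.13 CPM, against 2.01 to 3.25, and for Sema6c with 33.8 CPM, against 9.08 to 17.6. CA3 context replicate 2 had 319 CPM of Epha7, against 167 to 224 in the other libraries.

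In CA1, Epha1 was at 1.16 CPM in home cage replicate 3 (0 to 0.380 in the others) and Sema3b at 3.54 CPM in home cage replicate 2 (0.731 to 2.06). CA1 fear replicate 1 had 54.4 CPM of Sema4d (37.7 to 43.9 in the others) and 22.4 CPM of Sema4g (15.4 to 18.5).

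In LEC, fear replicate 3 had 72.2 CPM of Epha6 (34.9 to 53.2 in the others) and 104 CPM of Nrp2 (58.8 to 79.3). LEC home cage replicate 1 had 51.6 CPM of Epha7 (80.8 to 104) and 34.5 CPM of Sema3e (10.7 to 21.1). Ephb4 was at 5.71 CPM in LEC home cage replicate 2 (1.32 to 3.19), and Sema4b at 7.26 CPM in home cage replicate 3 (12.4 to 16.7).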

How the results depend on the processing

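Counts of the 53 genes called stayed within 1.5 times for the contrast of all regions, both region pairs, entorhinal against hippocampal and the fear average under every alternative run. The 3 LEC comparisons, CA1 fear against context and the interaction gave 0 in each of them, and no gene named for a comparison by the naming rule changed direction there. In MEC, fear against home cage gave 4 in the fit of all 36 libraries, 1 with the oligodendrocyte covariate and 7 to 26 with 1 library left out. MEC context against home cage gave 10 by DESeq2, 0 in the fit of all 36 libraries, 10 without a filter, 10 with the replicate block, 5 with the block and the GC offset, and 0 to 8 with 1 library left out. MEC fear against context gave 1 by DESeq2, 1 without a filter, 9 with the replicate block and 0 to 1 with 1 left out.

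In CA3, context against home cage gave 19 by DESeq2, 1 with the GC and length offset, 6 with that offset and the replicate block, 0 without context replicate 2 and home cage replicate 2, and 0 to 26 with 1 left out. CA3 fear against home cage gave 5 by DESeq2, 6 in the fit of all libraries, 6 with the block and offset, and 0 to 7 with 1 left out. The 7 came without home cage replicate 3, beside 2.79% of all genes. CA3 fear against context gave 6 by DESeq2 and 0 to 16 with 1 left out.

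In CA1, fear against home cage gave 7 by DESeq2, 3 in the fit of all libraries, 3 without a filter, 6 with the replicate block and 0 to 6 with 1 left out. Without home cage replicate 1 it was 6, beside 6.69% of all genes. CA1 context against home cage gave 5 by DESeq2, 4 in the fit of all libraries and 0 to 3 with 1 left out. The 3 came without home cage replicate 1, beside 2.11% of all genes. The context average gave 9 to 14 with 1 left out, 14 without CA3 context replicate 1 or LEC home cage replicate 3. The causes were not tested. Counts given without a share of all genes, among them those by DESeq2, do not set the family apart from other genes. The labels do not say what same-numbered libraries share. With the replicate block MEC fear against home cage gave 21. The 3 libraries a group limit what can be called, and Efna4, with 340 reads in all, is the least well measured gene.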
